A study of Mus musculus with 7 samples.

Results

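The 10 genes described are immediate early genes of neurons, followed through gene-level and exon-level RNA-seq counts of mouse hippocampus. They were Fos, Fosb, Jun, Junb, Egr1, Egr2, Egr3, Npas4, Arc and Dusp5, taken by gene name from a table of 38924 gene records, and each name matched 1 record. The study compared 3 groups of adult mice, all from a line in which the Tstar null allele was backcrossed to the C57Bl6 background over 8 generations, all kept under standard conditions with no special treatment. The groups were wild-type Ammon's horn (3 libraries), Ammon's horn of mice homozygous for a deletion of Khdrbs3 (3 libraries, called knockout below) and wild-type dentate gyrus (1 library). Ammon's horn is the hippocampal region that holds the CA pyramidal cell layers, the dentate gyrus is its granule cell region, and Khdrbs3 encodes an RNA-binding protein that takes part in alternative splicing. PolyA RNA was sequenced from each dissected region. Nothing in the labels ties the libraries to single animals, so the p-values measure only the spread between these libraries, which may be technical, and nothing in them covers variation between dentate gyrus samples.

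Immediate early genes are transcribed within minutes of synaptic activity or growth factor signalling, with no need for new protein synthesis. Calcium and kinase signalling act on factors already present, chiefly CREB, SRF with its ELK partners and MEF2, which sit at the promoters and enhancers of these genes. Most of the products are transcription factors, such as the AP-1 subunits FOS, FOSB, JUN and JUNB, the EGR zinc finger proteins and NPAS4. Arc and Dusp5 instead encode effectors, a synaptic protein and a phosphatase. In the hippocampus their transcripts are widely used as a readout of recent neuronal activity, and granule cells of the dentate gyrus are known for sparse firing.

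The promoters of the AP-1 genes and of Dusp5 are shown because these genes include the member that was higher in the dentate gyrus library (Jun) and the member that was lower by the widest margin (Dusp5). RefSeq promoter windows, from 250 bases before to 50 bases after the start site on GRCm38.p6, were found for 7 of the 10 genes, namely Fos, Fosb, Jun, Junb, Egr2, Npas4 and Dusp5. The last 150 bases before the start site are printed 5′ to 3′ along the gene's strand, for Fos at chr12:85473740-85473889 on the plus strand, Fosb at chr7:19310046-19310195 on the minus strand, Jun at chr4:95052223-95052372 on the minus strand, Junb at chr8:84978749-84978898 on the minus strand and Dusp5 at chr19:53528995-53529144 on the plus strand. Capitals mark matches, on either strand, to the letters searched: the SRF-binding CArG box, the full cAMP response element TGACGTCA, its short core TGACG (which also lies inside the full element), the AP-1 site TGANTCA, the EGR site GCGNGGGCG and the TATA box TATAAA.
Fos: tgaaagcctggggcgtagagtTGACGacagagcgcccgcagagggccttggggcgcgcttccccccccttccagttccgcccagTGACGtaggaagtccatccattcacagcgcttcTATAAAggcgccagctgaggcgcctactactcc
Fosb: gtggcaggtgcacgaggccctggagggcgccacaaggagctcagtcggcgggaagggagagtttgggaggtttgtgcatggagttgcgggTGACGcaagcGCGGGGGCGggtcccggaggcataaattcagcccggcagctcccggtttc
Jun: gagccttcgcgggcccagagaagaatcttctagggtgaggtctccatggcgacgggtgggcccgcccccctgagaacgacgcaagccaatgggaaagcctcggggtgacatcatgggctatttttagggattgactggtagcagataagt
Junb: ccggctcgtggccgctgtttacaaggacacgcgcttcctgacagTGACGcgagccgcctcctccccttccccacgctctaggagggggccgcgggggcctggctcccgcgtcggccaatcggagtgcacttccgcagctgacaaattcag
Dusp5: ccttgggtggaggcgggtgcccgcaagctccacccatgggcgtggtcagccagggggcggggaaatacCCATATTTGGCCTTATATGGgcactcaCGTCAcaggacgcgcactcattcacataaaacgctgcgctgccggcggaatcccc
Dusp5 held 2 CArG boxes end to end, at positions -82 and -72 from the start site, followed by the short cAMP core on the reverse strand at -55. A CArG box was found in 1.63% of all 32817 RefSeq windows of this length, and among the 7 genes only Dusp5 and Egr2 held one, Egr2 in 4 of its 5 start-site windows. Egr2 start sites 3, 4 and 5 lie at chr10:67537869, 67537870 and 67537930, so their windows overlap and hold the same box. Window 2 held a different one. Fos held the short core at -129 and -66 and a TATA box at -33. Fosb held it at -60, beside an EGR site at -50, and Junb at -106. The Npas4 window held the core at -179 and -169. The short core was found in 20.8% of all windows and in 6 of the 7 genes. A gene counted if any of its windows held the letters. G and C made up 56.0% to 72.0% of the windows of these genes, against a median of 52.7% over all windows. The shares over all windows were not matched for this. The Jun window had no match to any of the letters searched, nor had the first of the 5 Egr2 windows. MEF2 sites were not searched, and near matches to the letters were not counted. A window without a match may therefore still hold sites of these factors. The full cAMP response element (1.79% of all windows) and the AP-1 site (7.81%) were found in none of the 7, whereas the EGR site (5.56%) was found in Fosb alone and the TATA box (13.6%) in Fos and in Junb, where it began at the start-site base itself, past the printed stretch. These are matches of letters in a short window and not evidence of binding.

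The gene tables held 50230733 to 67692326 counts per library and the exon-bin files 29698245 to 39904606. Reads in the second exon bin of Khdrbs3 numbered 808, 1103 and 964 in the wild-type Ammon's horn libraries against 6, 9 and 7 in the knockout ones, which matches the labels. The rest of the transcript was not lost. Per 1000000 counts, unscaled, the whole gene record stood at 140, 145 and 133 in wild type and 192, 198 and 199 in the knockout. Marker counts are of genes called by edgeR at an adjusted p under 0.05. In the dentate gyrus library 11.2% of all genes were called higher and 10.9% lower. Of 8 markers of dentate granule cells, 7 were called higher there and 1 lower, and all 8 CA1 markers were called lower. The CA1 sum was 124 CPM (reads of the gene per 1000000 counted, after scaling between libraries) against 840 to 859 in wild-type Ammon's horn. All 8 oligodendrocyte markers were called lower too, with sums of 1504 against 4307 to 4469 CPM. Of 8 interneuron markers 6 were called lower and 7 had negative log2 fold changes, with sums of 578 against 732 to 795 CPM. Of 8 microglial markers 4 were called lower and 7 had negative log2 fold changes, with sums of 349 against 391 to 403 CPM. In knockout Ammon's horn, marker sums lay below wild type for oligodendrocytes (3796, 3679 and 3938 CPM), microglia (366, 367 and 352) and CA1 cells (795, 776 and 810). Dentate granule sums did too, at 819, 813 and 795 against 885, 861 and 878 CPM. Most of that sum was Pdzd2, the 1 granule marker called lower in the dentate gyrus library. Pdzd2 was at 667, 627 and 621 CPM in the knockout and 699, 702 and 692 CPM in wild type. Prox1 overlapped, at 18.7, 26.5 and 22.6 against 24.1, 18.9 and 27.9 CPM. The granule sum is therefore no measure of granule cells here. Sums for CA2 and CA3 cells, interneurons, astrocytes, and endothelial and mural cells overlapped. Only 1 of these markers, Cldn11, was called in the knockout (log2 fold change -0.34, adjusted p = 0.0457 by edgeR), where 0.0745% of all genes were. Choroid plexus markers differed between libraries of 1 group: their sum was 152, 40.0 and 22.5 CPM in wild-type replicates 1 to 3, 793, 20.01 and 736 CPM in knockout replicates 1 to 3, and 265 CPM in the dentate gyrus library. None of these 8 genes was at 0 in any library. In bulk tissue, fewer cells of a type and less RNA per cell cannot be told apart.

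In the dentate gyrus library 5 of the 10 immediate early genes were called lower than in wild-type Ammon's horn and 1 was called higher. Dusp5, Arc, Fosb, Egr1 and Junb were lower, by 1.61-fold to 3.90-fold, and Jun was 2.20-fold higher. Fos, Npas4, Egr2 and Egr3 did not pass the test. By edgeR's quasi-likelihood test with Benjamini-Hochberg adjusted p under 0.05, 1 of 10 genes was thus called higher, where 11.2% of the 24486 genes tested were, and 5 of 10 lower, where 10.9% of genes were. The median log2 fold change of the 10 genes was -0.95, and that of all genes tested was -0.01. All 10 passed the filter on low counts, and they were chosen with earlier results of these data known. In CPM, the dentate gyrus library was below all 6 Ammon's horn libraries for 8 genes, as 28.3% of all genes were, and above all 6 for Jun and Egr3, as 28.5% of all genes were. With 1 dentate gyrus library, its spread was assumed to equal that of the other groups.

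In the knockout Ammon's horn none of the 10 genes passed the test against wild type. By the same edgeR test 0 of 10 were called, where 0.0745% of 22830 genes tested were (17 genes), and DESeq2 and limma-voom also called 0. None had an unadjusted p under 0.05, against 8.38% of all genes. Log2 fold changes were positive for 6 genes and negative for 4, with a median of 0.02 against 0.00 for all genes. The CPM of the 3 knockout and 3 wild-type libraries overlapped for all 10 genes, whereas they did not overlap for 13.2% of genes tested. For Fos and Egr2 the 95% intervals, given below, still allow differences of up to 1.88-fold and 1.93-fold. Both comparisons use the same 3 wild-type Ammon's horn libraries.

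**Figure D1:**
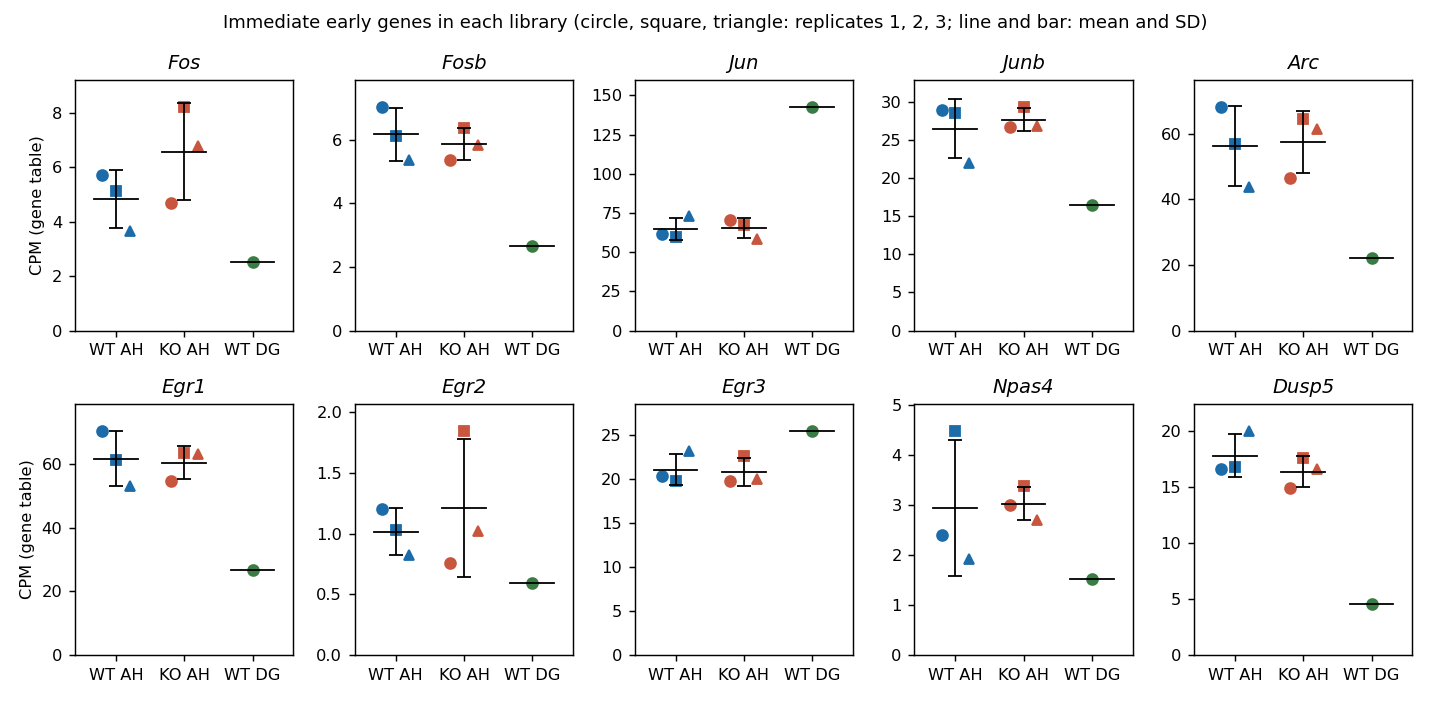
Each panel plots the CPM of 1 gene (vertical axis, from 0) in the 3 wild-type (WT) and 3 knockout (KO) Ammon's horn (AH) libraries and the 1 wild-type dentate gyrus (DG) library; points are libraries, horizontal lines group means and bars the SD. The dentate gyrus point lies below all 6 Ammon's horn points for 8 genes and above them for Jun and Egr3, while blue and red points overlap in every panel.

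**Figure D2:**
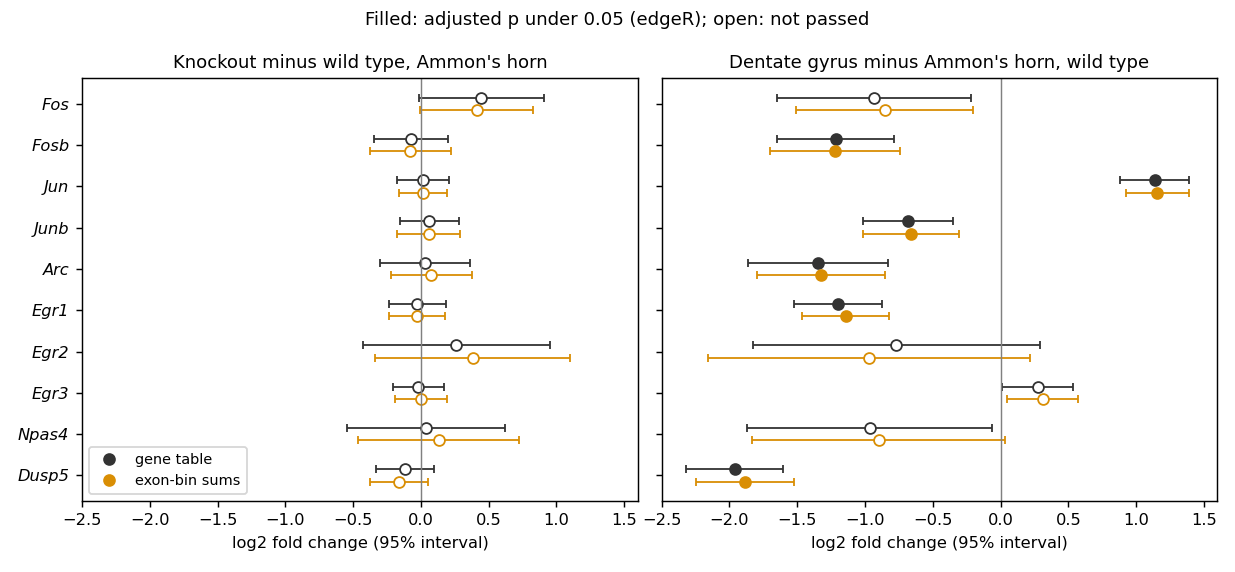
Log2 fold changes (horizontal axis) with 95% intervals for the 10 genes, from gene-table counts and from exon-bin sums, for knockout against wild-type Ammon's horn (left) and dentate gyrus against wild-type Ammon's horn (right). No point is filled on the left, and the same 6 genes are filled on the right for both kinds of count.

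FOS and FOSB are the AP-1 subunits that pair with a JUN protein to bind DNA. Fos (ENSMUSG00000021250.7, mm10 chr12:85473890-85477273, plus strand) was measured at 5.73, 5.11 and 3.65 CPM in wild-type Ammon's horn, 4.70, 8.22 and 6.78 CPM in the knockout and 2.52 CPM in dentate gyrus. Knockout replicate 2 was the highest of the 7 libraries and the dentate gyrus the lowest, but wild type and knockout overlapped. The knockout mean was 6.57 ± 1.77 CPM (SD, n = 3) against 4.83 ± 1.07 CPM, a log2 fold change of 0.45 (SE 0.21; 95% interval -0.01 to 0.91; adjusted p = 0.603, edgeR). The estimate was 0.25 without knockout replicate 2 and 0.28 without wild-type replicate 3, and it was 0.77 with knockout replicate 2 as the only knockout library. That library also had the lowest choroid plexus sum, given above, and with a choroid plexus covariate in the fit the estimate was 0.56 (adjusted p = 0.701, edgeR). For dentate gyrus against wild-type Ammon's horn the log2 fold change was -0.93 (SE 0.32; 95% interval -1.65 to -0.22; adjusted p = 0.0633 by edgeR), short of the threshold here but past it in 7 of 14 other settings, with adjusted p from 0.00925 to 0.121 across them.

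Fosb (ENSMUSG00000003545.2, chr7:19302721-19310045, minus strand) was at 7.05, 6.11 and 5.37 CPM in wild-type Ammon's horn, 5.38, 6.38 and 5.84 CPM in the knockout and 2.65 CPM in dentate gyrus. The 6 Ammon's horn libraries lay close together and the dentate gyrus value was well under all of them. The dentate gyrus was 2.32-fold lower, a log2 fold change of -1.22 (SE 0.20; adjusted p = 0.0015 by edgeR). In the knockout the log2 fold change was -0.07 (95% interval -0.35 to 0.20). Fosb also gives rise to the truncated and long-lived ΔFOSB protein by splicing, and because its 4 exon bins could not be placed on the annotation, the forms were not compared here.

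JUN is the partner that FOS proteins need, and it can also pair with itself. Jun (ENSMUSG00000052684.3, chr4:95049034-95052222, minus strand) was at 61.7, 59.9 and 73.1 CPM in wild-type Ammon's horn, 70.6, 67.4 and 58.3 CPM in the knockout and 142.8 CPM in dentate gyrus. It was thus the 1 gene of the 10 called higher in dentate gyrus, at 2.20 times the wild-type Ammon's horn level (95% interval 1.84 to 2.63; log2 fold change 1.14, SE 0.12; adjusted p = 9.35e-05 by edgeR). In the knockout its log2 fold change was 0.01 (95% interval -0.18 to 0.20). The Jun record shares 689 bp with an antisense record, BC042782, and with no strand setting stated for the counting, reads of the shared stretch cannot be told apart. BC042782 was itself higher in dentate gyrus by a log2 fold change of 1.004 (SE 0.14; adjusted p = 0.000752 by edgeR). It held 8407 gene-table counts over all 7 libraries against 31960 for Jun.

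JUNB is a weaker AP-1 activator than JUN and can restrain it. Junb (ENSMUSG00000052837.5, chr8:84976909-84978748, minus strand) was at 28.9, 28.5 and 22.0 CPM in wild-type Ammon's horn, 26.7, 29.4 and 26.8 CPM in the knockout and 16.5 CPM in dentate gyrus. Wild-type replicate 3 was the lowest Ammon's horn library, and the dentate gyrus lay below it. Dentate gyrus was 1.61-fold lower (log2 fold change -0.68, SE 0.15; adjusted p = 0.00818 by edgeR), the smallest of the 6 called differences, and the knockout log2 fold change was 0.06 (95% interval -0.16 to 0.28). The 2 JUN family genes among the 10 were therefore called in opposite directions in dentate gyrus.

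The EGR proteins are zinc finger transcription factors that bind GC-rich sites, and EGR1, also called Zif268, is induced by the activity that gives long-term potentiation in hippocampus. Egr1 (ENSMUSG00000038418.7, chr18:34859823-34864984, plus strand) was at 70.3, 61.3 and 53.1 CPM in wild-type Ammon's horn, 54.5, 63.5 and 63.1 CPM in the knockout and 26.8 CPM in dentate gyrus. All 6 Ammon's horn libraries lay above the dentate gyrus one, and the genotypes overlapped. Egr1 was 2.30-fold lower in dentate gyrus (log2 fold change -1.20, SE 0.15; adjusted p = 0.000312 by edgeR), and its knockout log2 fold change was -0.03 (95% interval -0.24 to 0.18).

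Egr2 and Egr3 did not pass the test in either comparison, Egr2 with wide intervals and Egr3 with narrow ones. Egr2 (ENSMUSG00000037868.9, chr10:67535475-67542188, plus strand) had 37 to 115 counts per library, and was at 1.20, 1.03 and 0.820 CPM in wild-type Ammon's horn, 0.758, 1.85 and 1.03 CPM in the knockout and 0.595 CPM in dentate gyrus. Its 95% intervals were wide, from -0.43 to 0.95 for the knockout and from -1.83 to 0.29 for dentate gyrus on the log2 scale, and the knockout estimate of 0.26 turned to -0.19 without knockout replicate 2. Egr3 (ENSMUSG00000033730.3, chr14:70077445-70080157, plus strand) was at 20.3, 19.7 and 23.1 CPM in wild-type Ammon's horn, 19.7, 22.6 and 19.96 CPM in the knockout and 25.4 CPM in dentate gyrus. It varied least of the 10 genes over Ammon's horn, where the highest library was 1.17 times the lowest. Its dentate gyrus value was the highest of the 7, with a log2 fold change of 0.27 (95% interval 0.01 to 0.53; adjusted p = 0.127 by edgeR), and its knockout log2 fold change was -0.02 (95% interval -0.21 to 0.17).

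NPAS4 is a bHLH-PAS transcription factor induced selectively by calcium entry in neurons. Npas4 (ENSMUSG00000045903.8, chr19:4984355-4989971, minus strand) was at 2.41, 4.48 and 1.93 CPM in wild-type Ammon's horn, 2.999, 3.37 and 2.70 CPM in the knockout and 1.51 CPM in dentate gyrus. Wild-type replicate 2 stood above all the others, and the dentate gyrus was lowest. The dentate gyrus log2 fold change of -0.97 (SE 0.41; 95% interval -1.87 to -0.06) did not pass (adjusted p = 0.121 by edgeR), although DESeq2 (adjusted p = 0.0491) and the edgeR fit without wild-type replicate 3 (adjusted p = 0.0343) called it, and it shrank to -0.52 without wild-type replicate 2. The knockout log2 fold change was 0.04 (95% interval -0.54 to 0.62).

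ARC is a synaptic effector that promotes the removal of AMPA receptors, and its mRNA travels into dendrites. Arc (ENSMUSG00000022602.8, chr15:74669083-74672570, minus strand) was at 68.2, 56.7 and 43.8 CPM in wild-type Ammon's horn, 46.6, 64.3 and 61.5 CPM in the knockout and 22.1 CPM in dentate gyrus. Replicates of 1 genotype differed by more than the genotypes did, with means of 56.3 ± 12.2 CPM for wild type and 57.5 ± 9.54 CPM for knockout (SD, n = 3 each). Arc was 2.54-fold lower in dentate gyrus (log2 fold change -1.35, SE 0.23; adjusted p = 0.00235 by edgeR). Its knockout log2 fold change was 0.03 (95% interval -0.30 to 0.36).

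DUSP5 is a nuclear phosphatase of the dual-specificity family. Dusp5 (ENSMUSG00000034765.6, chr19:53529109-53542431, plus strand) was at 16.6, 16.8 and 20.02 CPM in wild-type Ammon's horn, 14.9, 17.6 and 16.6 CPM in the knockout and 4.57 CPM in dentate gyrus. The Ammon's horn libraries spanned a narrow range far above the dentate gyrus one. Dusp5 was 3.90-fold lower in dentate gyrus (log2 fold change -1.96, SE 0.16; 95% interval -2.32 to -1.60; adjusted p = 2.43e-05 by edgeR), the largest difference among the 10 genes, and its knockout log2 fold change was -0.12 (95% interval -0.33 to 0.09).

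Levels can be set against one another only per length, which was possible for 6 genes: 5 whose exon bins could be placed on the annotation, and Junb, whose single bin was taken as the length of its record. In wild-type Ammon's horn, on the scale of exon-bin CPM per kilobase of exon, the order was Arc at 18.1 ± 3.77, Egr1 at 12.6 ± 1.89, Junb at 12.3 ± 1.97, Dusp5 at 7.04 ± 0.644, Fos at 2.67 ± 0.593 and Egr2 at 0.295 ± 0.0704 (mean ± SD, n = 3). Egr1 and Junb did not differ beyond their spread. In dentate gyrus, Junb was at 7.77, Arc at 7.21, Egr1 at 5.71, Dusp5 at 1.90 and Fos at 1.47. The place of Egr1 turns on its length, which includes a first bin of 1384 bp, upstream of the other bins, that held at most 2 reads in any library. Without that bin, a setting chosen after seeing the data, Egr1 was at 18.3 ± 2.74 in wild-type Ammon's horn, level with Arc within the spread, and at 8.26 in dentate gyrus, above Junb. A read that spans neighbouring bins may be counted in each, which would raise genes with several bins against Junb. An Arc bin of 3 bp, for example, held 21 to 77 reads per library. The order of Junb against the other genes is therefore uncertain.

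Within Ammon's horn the libraries differed in how many of the 10 genes they held high, in each genotype. Knockout replicate 2 was above the Ammon's horn mean for all 10 genes and was the highest of the 6 libraries for Fos, Junb and Egr2. Wild-type replicate 3 was the lowest of the 6 for Fos, Fosb, Junb, Arc, Egr1 and Npas4, and the highest for Jun, Egr3 and Dusp5. The mean log2 difference from the Ammon's horn mean was 0.06, 0.03 and -0.17 in wild-type replicates 1 to 3 and -0.12, 0.20 and 0.00 in knockout replicates 1 to 3, so both genotypes spanned zero. Across the 6 libraries, 26 of the 45 pairs of genes had a positive Pearson r, with a median of 0.29 and a range from -0.73 to 0.98. Arc had the highest median r with the other 9 genes, at 0.76, whereas Jun, at -0.49, Dusp5, at -0.21, and Egr3, at -0.12, had negative medians. These correlations are descriptions over 6 libraries that share normalization.

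Among other genes, the profile most like the mean log2 CPM of the 10 genes over the 6 Ammon's horn libraries was that of Sgk1, a kinase induced by glucocorticoids and activity (r = 0.95), which ran from 49.4 CPM in knockout replicate 1 to 78.5 CPM in knockout replicate 2. Gm4876 (0.90), Spp1 (0.87), the early response nuclear receptor Nr4a1 (0.87), mt-Tr (0.86) and Ror1 (0.84) followed, out of 697 genes with a median r of 0.04. Over all 7 libraries the 6 most alike were Plk2, a kinase induced by activity (0.98), Nr4a1 (0.98), Nefh (0.97), Sept6 (0.97), Klhdc8a (0.96) and Rasgrp1 (0.96), a ranking that the single dentate gyrus library can set. Nr4a1 stood in both lists, at 32.4, 27.2 and 19.9 CPM in wild-type Ammon's horn, 25.6, 33.5 and 31.5 CPM in the knockout and 10.7 CPM in dentate gyrus. The lists share the 6 Ammon's horn libraries, so they are not independent. These r were not tested, and over 6 libraries high values can arise by chance among 697 genes.

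The exon bins gave the same calls as the gene table. Rows of the gene table are whole gene records, whose spans include introns, and rows of the exon-bin files are exonic pieces; how the reads were assigned to either is not given in the sources used here. From exon-bin sums, the dentate gyrus log2 fold change was -1.89 for Dusp5, -1.33 for Arc, -1.22 for Fosb, -1.14 for Egr1, -0.66 for Junb and 1.16 for Jun, and these 6 genes passed edgeR's test. Of all 16263 genes tested on exon-bin sums, 14.8% were called higher and 14.5% lower. Fos was at -0.85 (adjusted p = 0.0502 by edgeR), and none of the 10 genes was called in the knockout, where Fos was at 0.41 and Dusp5 at -0.16.

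The ratio of gene-table counts to exon-bin counts was then compared within each gene across libraries. Junb, with 1 exon bin and no intron, had a ratio of 2.01 over all libraries, so a ratio of that size arises here without intronic reads. The other 9 genes lay below it, from 1.86 for Egr1, 1.85 for Egr3, 1.82 for Fosb, 1.81 for Jun, 1.77 for Dusp5, 1.72 for Arc, 1.67 for Egr2 and 1.55 for Npas4 to 1.33 for Fos, against a median of 1.64 over 15017 genes. Genes with more bins had lower ratios (median 1.80 with 5 to 9 bins, 1.27 with 20 or more), so the ratio does not rank genes by intronic reads. Within genes, the wild-type and knockout ranges of the ratio overlapped for all 10. Fos had 1.32 ± 0.0859 in wild type and 1.35 ± 0.0867 in knockout (SD, n = 3) and 1.29 in dentate gyrus. The dentate gyrus ratio lay outside the range of the 6 Ammon's horn libraries for Fosb, Jun, Egr2 and Dusp5, by small steps: for Dusp5 it was 1.71 against 1.75 ± 0.0405 in wild type, and for Egr2 2.06, from 18 exon-bin reads. The shares of all genes whose ratios overlap or lie outside in these ways were not computed. Neither count can therefore be read as particular to the 10 genes.

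**Figure D3:**
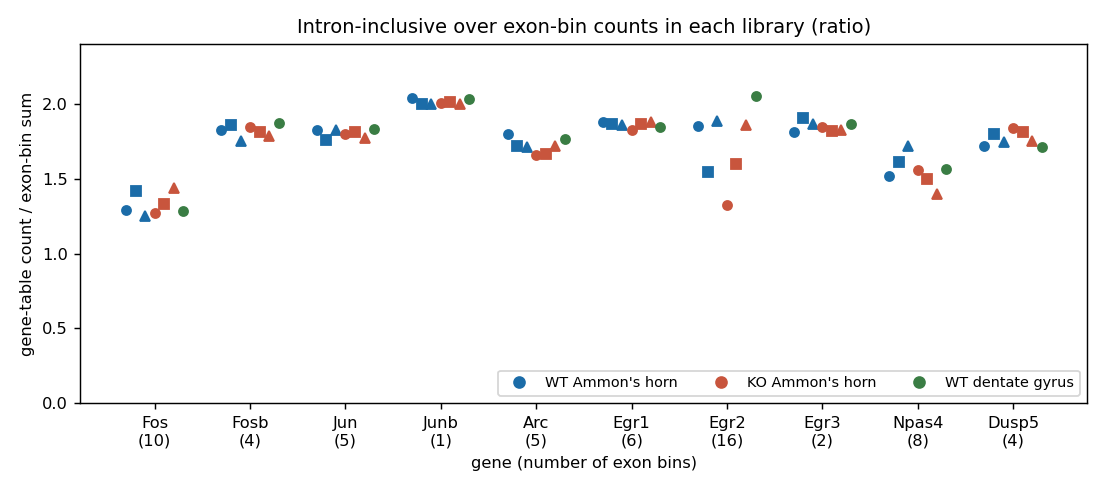
Ratio of gene-table count to exon-bin sum (vertical axis, from 0) for each gene, with its number of exon bins in brackets, in each library; circles, squares and triangles are replicates 1, 2 and 3. Within a gene the 3 colours lie together, Junb near 2.01 and Fos lowest at 1.33, and Egr2 and Npas4, which have few reads, spread most.

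None of the exon bins tested passed a test of differential use. Of their 61 bins, 34 in 8 genes had enough reads to test, leaving out Junb, which has 1 bin, and Egr2, of which fewer than 2 bins had enough reads. The edgeR test of each bin against the rest of its gene called 0 of 34 in the knockout, where 0.00301% of 166154 bins were called, and 0 of 34 in dentate gyrus, where 0.213% of 169072 were. None had an unadjusted p under 0.05 in either comparison, against 1.72% and 3.89% of all bins, and no other tool was run on the bins. The last bin of Dusp5 (chr19:53540916-53542431, the end of its coding sequence and its 3′ untranslated region) took 67.3 ± 2.24% of its reads in wild-type Ammon's horn, 69.6 ± 5.003% in the knockout and 67.5% in dentate gyrus. The largest Arc bin (chr15:74670565-74672568, which holds its coding sequence) took 59.0 ± 1.36%, 60.1 ± 0.256% and 62.3%. In both genes the total therefore differed between regions, while no tested bin was called. The smaller bins of Dusp5 held few dentate gyrus reads. Bin 2 took 10.5 ± 1.66% of the gene's reads across the wild-type Ammon's horn replicates and 7.23% (12 reads) for dentate gyrus. Bin 3 took 15.7 ± 0.265% and 19.3% (32 reads), and bin 1 took 6.38 ± 1.10% and 6.02% (10 reads). With a single dentate gyrus library and reads this few, whether the split stayed the same cannot be decided.

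Of 27 other rapid primary response genes, 1 was called higher and 7 lower in dentate gyrus, where 11.2% of all genes were called higher and 10.9% lower, and 19 did not pass. Their median log2 fold change was -0.15, against -0.01 for all genes. This list and those below were chosen with earlier results of these data known. Setting them beside all genes is thus a description only. The nuclear receptors Nr4a2 (-1.53, SE 0.14) and Nr4a1 (-1.31, SE 0.24) and the receptor Gpr3 (-1.05, SE 0.22) were lower, and the antiproliferative gene Btg2 was higher (1.04, SE 0.15), from 7.89 ± 0.833 CPM to 16.2 CPM. In the knockout 0 of 27 were called, where only 0.0745% of all genes were, so 0 does not set these genes apart. Their median was 0.00, and the most abundant, Jund and Nr4a3, were at -0.15 and 0.05.

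The slower activity-regulated genes, most of them effectors, went both ways. Of 29, 6 were higher and 12 lower in dentate gyrus, beside the same shares of 11.2% and 10.9% of all genes, with a median of -0.26. The synaptic pentraxin Nptx2 was at -1.28 (SE 0.14), the sorting receptor Sorcs3 at -0.99 (SE 0.08), the phosphatase Dusp6 at -0.94 (SE 0.13) and the kinase Plk3 at -0.91 (SE 0.18). Among the genes called higher were the pentraxin Nptx1 (0.67, SE 0.09), the neurotrophin Bdnf (0.60, SE 0.10) and Dusp4 (0.50, SE 0.10), a phosphatase of the same family as Dusp5 and Dusp6; these 3 were picked after their values were seen. In the knockout 0 of 29 were called, where 0.0745% of all genes were. Their median was -0.05, and Nptx1 and Nrn1, the most abundant, were at 0.02 and -0.05.

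Of 27 factors and kinases that switch early genes on, 18 were higher and 1 lower in dentate gyrus, against 11.2% and 10.9% of all genes, with a median of 0.40. Mef2c (0.95, SE 0.09), the SRF coactivator Mkl2 (0.89, SE 0.10), Elk3 (0.71, SE 0.13) and Elk1 (0.70, SE 0.13) were the furthest apart, all higher. Srf itself was at 0.10 and did not pass, and the calcium-dependent kinase Camk4 was lower (-0.52, SE 0.13). In the knockout 0 of 27 were called, where 0.0745% of all genes were. Their median was 0.01, and Camk2a, the most abundant, was at -0.05.

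Of 9 partners and repressors of the proteins, 1 was higher and 3 lower in dentate gyrus, against 11.2% and 10.9% of all genes, with a median of -0.03. The 2 ARNT proteins with which NPAS4 pairs went opposite ways, Arnt at 0.77 (SE 0.12) and Arnt2 at -0.76 (SE 0.07). The EGR repressor Nab1 was lower (-0.44, SE 0.09), as was Atf4 (-0.40, SE 0.12). In the knockout 0 of 9 were called, where 0.0745% of all genes were. Their median was 0.03, and Arnt2 and Atf2 were at 0.00 and -0.03. The lower CA1, oligodendrocyte and interneuron marker sums of the dentate gyrus library, given above, accompany all of these differences, and their part in them was not tested.

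**Figure D4:**
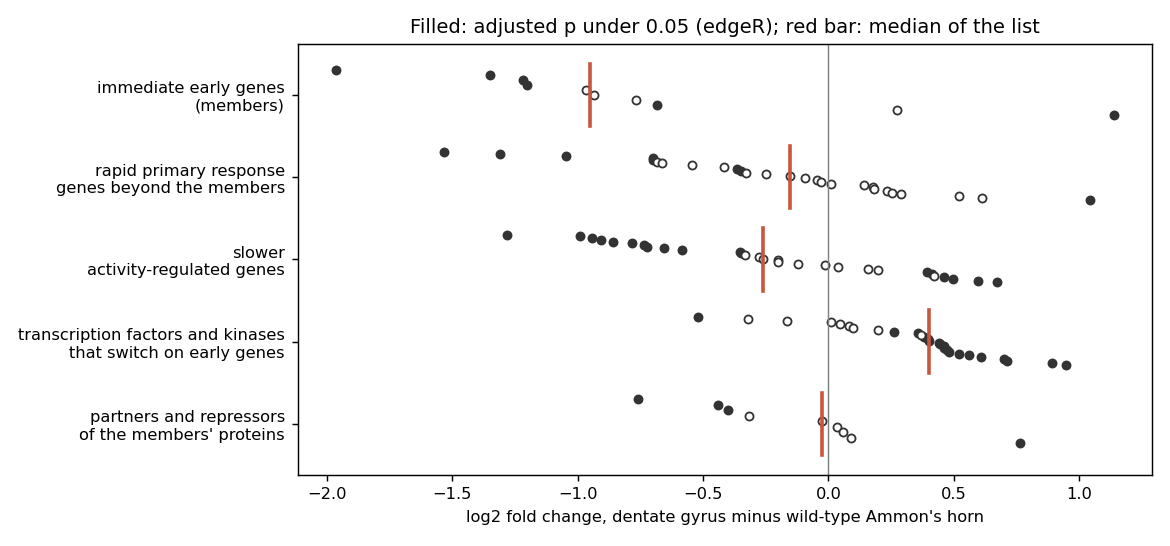
Log2 fold changes of dentate gyrus against wild-type Ammon's horn (horizontal axis) for the 10 immediate early genes and 4 lists of related genes; each point is a gene, filled where edgeR's adjusted p is under 0.05, and red bars are list medians. The immediate early genes have the lowest median, at -0.95, and the factors and kinases the highest, at 0.40. Members and lists were chosen with earlier results of these data known.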

How the data were processed

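RNA-seq of polyA RNA from 7 libraries was used. The authors deposited raw read counts per gene record and per exon bin. Per the submitters' processing notes, the tools included Trim Galore 0.3.5, TopHat2 2.0.8b, bedtools 2.17.0 and DESeq2 1.0.19, with build mm10; which tool made which count is not given in the sources used here. CPM were computed here with TMM scaling. The knockout comparison used 6 libraries and the dentate gyrus comparison all 7, in edgeR 4.0.16 quasi-likelihood fits (R 4.3.3) after filterByExpr; log2 fold changes have 95% intervals. Exon bins with at least 10 reads in 3 libraries were tested with diffSpliceDGE. DESeq2 1.42.0, limma-voom (limma 3.58.1), RLE scaling, no filter, exon-bin sums, dropped mitochondrial genes, dropped libraries and other sample sets were alternatives. The fits were tested on simulated data. Replicate numbers follow accession order and pair nothing; replicates differed beyond sampling noise. All 10 members were named; up to 4 genes per list were named by size of called change, else the 2 most abundant. Similar genes needed a mean of 5 CPM and a log2 SD of 0.2. Members and lists were chosen with earlier results of these data known.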

Additional observations from a re-analysis of the deposited data

How the results depend on the processing

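No paired analysis was possible because the labels give no replicate numbers. The 6 calls in dentate gyrus held in all 14 alternatives, and the number of the 10 genes called lower ran from 5 to 7, since Fos or Npas4 crossed the threshold in some. For Fos the log2 fold change and adjusted p were -0.93 and 0.0398 without the filter, -0.93 and 0.00925 with DESeq2, -0.93 and 0.0416 with only the 4 wild-type libraries and -1.17 and 0.0421 against all 6 Ammon's horn libraries (an alternative chosen after seeing the data), and it was also called when 1 of 3 libraries was left out, wild-type replicate 3 (-1.10) or the knockout ones numbered 1 and 2. For Npas4 the value was -0.96 with DESeq2 and -1.20 without wild-type replicate 3. No alternative called any of the 10 genes in the knockout. The count of all genes called there was 17, and it was 107 with DESeq2, 10 with limma-voom, 8 on exon-bin sums, 4 without mitochondrial genes and 11 to 55 with 1 library left out (11 without wild-type replicate 2 or knockout replicate 1, 55 without knockout replicate 2); the cause was not tested. Small knockout log2 fold changes changed sign. With knockout replicate 2 as the only knockout library, Fosb was at 0.0477, Egr1 at 0.0456 and Egr3 at 0.10, an alternative chosen after seeing the data, and Egr3 was at 0.0696 with the choroid plexus covariate. With 1 library left out the knockout values ran from -0.163 to 0.0314 for Fosb, -0.046 to 0.106 for Jun, -0.0546 to 0.132 for Junb, -0.12 to 0.19 for Arc, -0.123 to 0.0797 for Egr1, -0.19 to 0.51 for Egr2, -0.0841 to 0.0528 for Egr3 and -0.19 to 0.48 for Npas4. Depth limits Egr2, with 37 to 115 counts per library, and Npas4, with 94 to 309.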

Other observations

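Egr2 has several annotated starts, but too few reads fell near them to compare their use between libraries. In bins 5 to 7 (mm10 chr10:67537870-67538180, noncoding, just downstream of the second group of starts), the reads were 0, 0 and 3 in wild-type Ammon's horn replicate 1 and 0 in each bin in replicates 2 and 3. They were 3, 5 and 5 in knockout replicate 1, 2, 3 and 4 in knockout replicate 2, and 0 in each bin in knockout replicate 3. The dentate gyrus library had 1 read in each. The last bin of Egr2, its coding end and 3′ untranslated region, held 19, 17 and 13 reads in wild type, 12, 41 and 23 in the knockout and 13 in dentate gyrus. These bins were chosen after their values were seen, they were not tested because only the last of them had enough reads and a test needs 2 such bins, and a read that spans neighbouring bins may be counted in each.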
